A study of Danio rerio with 55 samples.

Results

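This report describes the H3K27me3 peaks that were listed in both replicates of MZezh2 mutant zebrafish embryos, which lack the methyltransferase that places this mark. Within each mutant replicate, peaks with a gap under 1 kb were joined. The stretches that both replicates shared, by at least 1 bp, are called members. There were 218 members, out of 32187 regions obtained by merging the peaks of all 18 ChIP-seq lists of the series in the same way (0.537% of these regions held a member, since a merged region can hold more than 1). The mutant lists chose the members, so the mutant H3K27me3 values are given as a description, without a test.

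The mutants carried the ezh2 nonsense allele hu5670 in homozygous form and had neither maternal nor zygotic Ezh2, since they came from parents with a mutant germ line made by germ cell transplantation. The controls were WT embryos. All libraries came from pools of whole embryos at 24 hours post-fertilization (hpf), and by the labels both genotypes were of a mixed TU/TLF background. Chromatin was immunoprecipitated for H3K27me3, Ezh2 and Rnf2 in 2 replicates per genotype and for H3K4me3 in 3. Every peak was called against input DNA of WT embryos, which the labels assign to the AB strain. Replicate 2 of the H3K27me3 and Ezh2 libraries contained added Drosophila chromatin, in both genotypes. Which cells of the embryo a peak came from cannot be read from whole embryos.

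Ezh2 is the catalytic subunit of Polycomb repressive complex 2 (PRC2), which trimethylates lysine 27 of histone H3. The resulting mark, H3K27me3, is bound by Polycomb repressive complex 1, of which Rnf2 is the E3 ubiquitin ligase, and both complexes keep developmental genes silent. H3K4me3 is a mark of active or poised promoters and is placed by other enzymes. A peak caller such as MACS2 compares the reads of a ChIP library with those of the input. The fold enrichment is the ratio of ChIP to input signal in the peak. The q-value also depends on how many reads the peak holds, so a low ratio can reach a high -log10 q where coverage is high.

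Before merging, the H3K27me3 lists held 287 and 756 peaks in the MZezh2 replicates and 6918 and 5283 in the WT replicates. After merging, 236 and 637 regions remained in MZezh2 and 6266 and 4619 in WT. Of the 236 merged regions of MZezh2 replicate 1, 215 overlapped a region of replicate 2, while 192 of the 637 regions of replicate 2 overlapped one of replicate 1. The members are therefore nearly the whole list of replicate 1 and a minority of the list of replicate 2. Of all 32187 regions, 0.6% had a peak in MZezh2 replicate 1 and 1.81% in MZezh2 replicate 2, the lists that define the members. In WT, 3548 regions were shared by both replicates.

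The members were short. Their widths ran from 89 to 5642 bp with a median of 407.5 bp, and together they covered 171793 bp. There were 73 members under 200 bp and 55 over 1 kb. The shortest overlap that made a member was 89 bp, on an unplaced scaffold, with a fold enrichment of 3.49 and 1.95 in MZezh2 replicates 1 and 2. Just outside the rule, a peak of replicate 1 at chr10:16854262-16854385 missed the nearest peak of replicate 2 by 721 bp, with fold enrichments of 3.05 and 1.81 in the 2 peaks. Further peaks of replicate 1 missed by 993 bp on chromosome 2 and by 1045 bp on chromosome 7. These folds lie within the range of the members.

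Fold enrichment at the members was 2.52 at the lowest, 4.66 at the median and 27.6 at the highest in MZezh2 replicate 1. In MZezh2 replicate 2 the lowest was 1.51, the median 2.91 and the highest 23.3. Replicate 1 had the higher fold at 200 of the 218 members. The ranking of the members was nonetheless similar in both replicates, with a Spearman rho of 0.86 over the 218 members, a description only, since both replicates share the same input and neighbouring members are not independent.

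The members were spread unevenly over the genome. They lay on 22 of the 25 chromosomes and on 8 unplaced scaffolds, which are assembled pieces of sequence with no assigned chromosome. Chromosome 2 held 21 members, chromosome 17 held 20, chromosomes 7 and 8 held 18 each, and chromosomes 4 and 10 held 15 each. These 6 chromosomes, picked for holding the most members, together carried 107 members (49.1%), compared with 29.0% of the WT H3K27me3 regions. A higher share of members is partly built into this choice. Neighbouring members are not independent either, so the shares are a description. Chromosomes 6, 9 and 25 carried none, and neither did the mitochondrial genome. Chromosomes 1, 12 and 19 carried 1 member each.

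Unplaced scaffolds held 25 of the members (11.5%), against a background of 1.62% of all listed regions and 1.17% of the 3417 WT H3K27me3 regions that held no member. Of these 25, 17 lay on only 2 scaffolds, with 10 members within the first 34569 bp of one and 7 within the first 38822 bp of the other. The 6 other scaffolds had 1 or 2 members each. Of the 25 scaffold members, 16 lay on a region shared by both WT H3K27me3 lists, against 10% of all regions. The median fold at the scaffold members was 4.06 and 2.40 in the MZezh2 replicates. It was 1.98 and 2.02 in the WT replicates, which listed 17 and 21 of them, against 18.8% and 13.1% of all regions. The Rnf2 list of MZezh2 replicate 1 held 17 of the 25, against 1.71% of all regions, and that of WT replicate 1 held all 25, against 55.3%.

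On the chromosomes and scaffolds, the members occurred in groups. With groups defined as at least 3 members less than 100 kb from one another, 157 members (72.0%) fell into 25 groups, 23 on chromosomes and 2 on scaffolds. The WT H3K27me3 regions, although many times more numerous, were in such groups in 40.3% of cases. The member share depended on the rule: it was 39.3% with mutant peaks under 5 kb apart merged and 47.6% without replicate 1, while the WT regions were kept as they were. The groups spanned 5809 to 68575 bp, with a median of 27269 bp, and members covered a median of 15.7% of the span. Neighbouring members within a group were a median of 3028 bp apart, so that the groups are runs of short peaks and not continuous domains. The other 61 members lay outside such groups, and 25 of these had another member within 1 Mb.

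The largest group, at chr2:19774158-19838069, held 14 members in 63912 bp. Their fold enrichment ran from 3.54 to 6.95 in MZezh2 replicate 1 and from 2.67 to 5.99 in MZezh2 replicate 2. In WT it ran from 1.73 to 4.63 at the 12 members listed in replicate 1 and from 2.30 to 5.28 at all 14 in replicate 2. These WT lists held 18.8% and 13.1% of all regions. All 14 members were also listed in MZezh2 Rnf2 replicate 1, MZezh2 H3K4me3 replicate 2, WT Ezh2 replicate 1, WT Rnf2 replicate 1 and WT H3K4me3 replicate 1. Over all regions these lists held 1.71%, 42.2%, 9.84%, 55.3% and 43.5%. Each of the 14 was present in at least 7 of the 14 lists of the antibodies other than H3K27me3, with a median of 11. The map of this group shows peaks at recurring positions in both genotypes, except in MZezh2 Ezh2 replicate 1 and Rnf2 replicate 2. MZezh2 Ezh2 replicate 1 had no peak there, and its whole list held 21 peaks. MZezh2 Ezh2 replicate 2 had 22 peaks there, and the WT Ezh2 replicates had 21 and 25. Rnf2 replicate 2 had 2 in MZezh2 and 4 in WT.

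**Figure D1:**
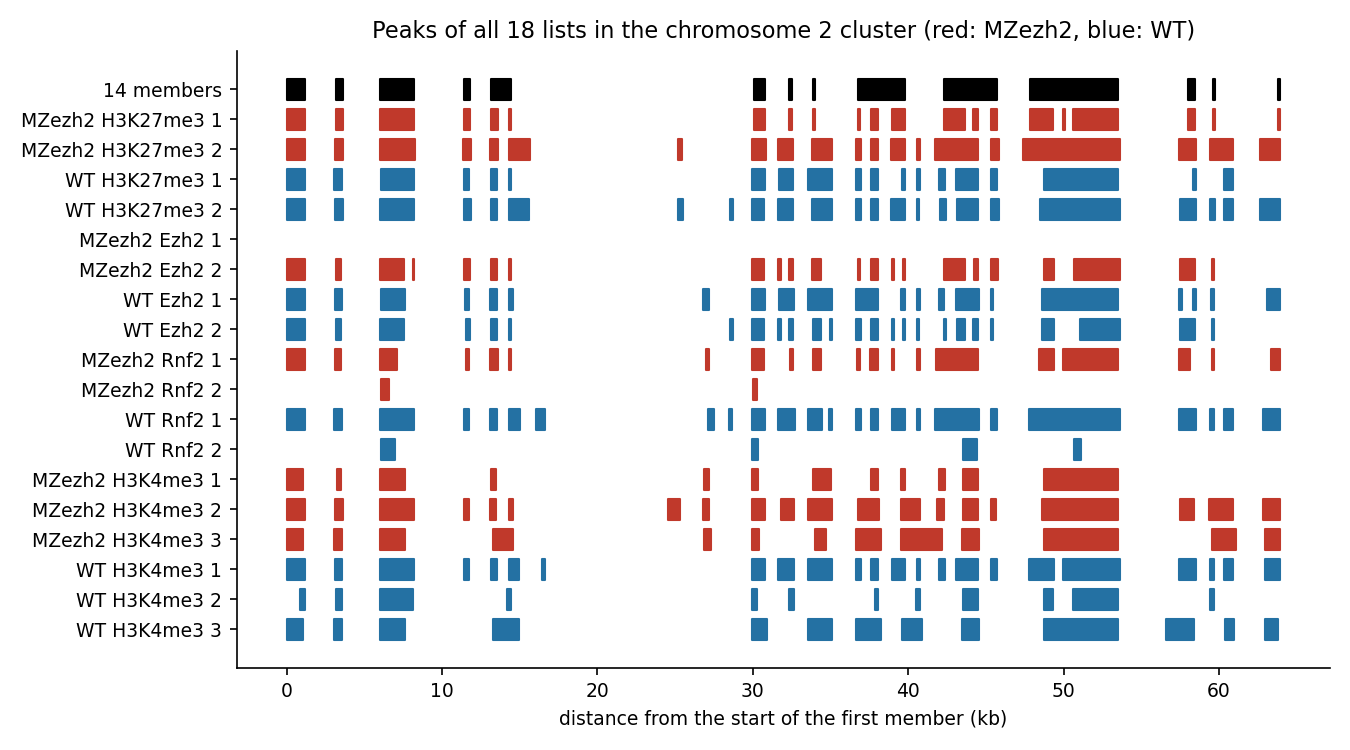
Peaks of the 18 lists in the group of 14 members on chromosome 2. The x axis gives the distance in kb from the start of the first member, each row is a library, black bars are the members, red bars MZezh2 peaks and blue bars WT peaks. The same positions recur in most rows, except for MZezh2 Ezh2 replicate 1, which had no peak there, and Rnf2 replicate 2, which had 2 peaks in MZezh2 and 4 in WT.

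Next in size were a group of 13 members at chr10:16825954-16881952, a group of 10 at chr17:45199438-45239240, the 10 members on the unplaced scaffold and a group of 8 at chr4:28562895-28614623. In the chromosome 10 group the median fold was 4.78 and 2.88 in the MZezh2 replicates, against 2.01 and 2.52 in the WT replicates, where 9 and 13 members were listed. In the chromosome 17 group it was 4.69 and 3.08 in MZezh2 and 2.53 and 2.79 in WT, with 6 and 9 members listed in WT. The scaffold group had 3.97 and 2.37 in MZezh2 and 1.95 and 1.97 in WT, with 9 and 8 members listed. In the chromosome 4 group it was 4.20 and 2.63 in MZezh2 and 1.83 and 2.14 in WT, with 5 and 8 members listed. Over all regions the WT H3K27me3 lists held 18.8% and 13.1%. In each of these 4 groups the median fold was higher in MZezh2 replicate 1 than in any of the other 3 H3K27me3 libraries. The 20 smaller groups had 3 to 7 members each. The most densely covered, chosen after its values were seen, was chr14:19788842-19811321, where 6 members covered 63.5% of 22480 bp.

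Members in groups were wider than the 61 outside groups of at least 3, with a median of 489 bp against 200 bp, and had lower folds, with medians of 4.39 and 2.69 in the MZezh2 replicates against 5.62 and 4.40 outside groups. The share lying on a WT H3K27me3 region was nearly equal, at 61.8% in groups and 62.3% outside them.

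The question whether the mutant peaks were also present in WT embryos can be put to the WT lists, which the rule did not use. WT H3K27me3 replicate 1 listed 140 members (64.2%), against a background of 18.8% of all regions, and replicate 2 listed 194 (89.0%), against 13.1%. Both WT lists held 135 members (61.9%, where 10% of all regions lay on such a shared WT region), 5 members were listed in replicate 1 alone and 59 in replicate 2 alone. Without MZezh2 replicate 1, the share of the then 637 regions on a shared WT region was 30.5%. The remaining 19 members had no peak in either WT H3K27me3 list. In all, 199 members had a peak in at least 1 WT H3K27me3 list, a share that was not counted over all regions. Conversely, 131 of the 3548 WT regions (3.69%) held a member. These WT regions had a median width of 558 bp, against 912 bp for the 3417 without a member, and members covered a median of 98.1% of them. Where a member lay on a WT region, it thus usually covered nearly all of it.

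At the 135 members listed in all 4 H3K27me3 libraries, the fold was 2.86 at the lowest, 4.98 at the median and 27.6 at the highest in MZezh2 replicate 1, and 1.75, 3.10 and 23.3 in MZezh2 replicate 2. In WT replicate 1 these values were 1.39, 2.23 and 16.2, and in WT replicate 2 they were 1.43, 2.68 and 14.9. Both MZezh2 folds exceeded both WT folds at 119 of the 135 members, both were below at 1 member, and the genotypes overlapped at 15. The median log2 difference of MZezh2 and WT was 0.74 (range -0.55 to 1.28, MZezh2 minus WT). Every stretch shared by both MZezh2 lists is a member, so no share over other regions can be set beside these counts. These members had to reach the threshold in both MZezh2 lists to be chosen. Fold enrichment is also scaled within each library, so the difference is a description of the lists.

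The 19 members absent from the WT H3K27me3 lists were narrow, with a median width of 187 bp. Their median fold was 4.00 and 2.26 in the MZezh2 replicates. In 18 of them at least 1 list of another antibody had a peak, with a median of 3 lists per member. The Rnf2 lists of replicate 1 held the most of them, with 10 in MZezh2, where the background was 1.71% of all regions, and 12 in WT, where it was 55.3%, so that the WT count is near its background. No share of all regions was counted for a peak in at least 1 list of another antibody or in any WT list. Single H3K4me3 lists alone held 32.4% to 48.2% of all regions. Only 3 members had no peak in any WT list, at chr8:34846666-34847113, chr11:17434438-17434713 and chr13:18988267-18988465. Their folds were 4.59, 2.93 and 3.28 in MZezh2 replicate 1 and 2.29, 1.51 and 1.79 in MZezh2 replicate 2. The member on chromosome 13 was the single one found in no other list at all, while the one on chromosome 11 had an Rnf2 and an H3K4me3 peak in a MZezh2 list, and the one on chromosome 8 also had a second H3K4me3 peak. These 3 were named after their values were seen.

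Ezh2 peaks were listed at 8 and 165 members in the MZezh2 replicates, against 146 and 166 in the WT replicates. The backgrounds over all regions were 0.0652% and 1.79% in MZezh2 and 9.84% and 4.57% in WT. MZezh2 replicate 1 stands apart, with a list of 21 peaks in all, whereas MZezh2 replicate 2 lay between both WT libraries, although by genotype these embryos have no Ezh2. Of its 699 peaks, 193 overlapped a member. The difference between the means of the genotypes was -69.5 members (MZezh2 86.5 ± 111 and WT 156 ± 14.1, SD, n = 2 each), with p = 0.667 in a two-sided exact permutation test over libraries. With 2 libraries against 2 this test cannot go below 0.333. Without replicate 1 of both genotypes the difference was -1 member. The lists had different thresholds, since the lowest -log10 q was 2.04 in MZezh2 replicate 1 but 1.01 to 1.02 in the other 3.

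Rnf2 peaks were listed at 178 and 21 members in the MZezh2 replicates, against 192 and 26 in the WT replicates. The background was 1.71% and 0.985% of all regions in MZezh2 and 55.3% and 2.1% in WT. Both replicates 1 were high and both replicates 2 low, in either genotype. The difference of the means was -9.5 members (MZezh2 99.5 ± 111 and WT 109 ± 117, SD, n = 2 each; two-sided exact permutation p = 0.667, smallest possible 0.333). In total, 195 members (89.4%) had an Ezh2 or an Rnf2 peak in at least 1 MZezh2 list, against 3.54% of all regions and 5.15% of the WT H3K27me3 regions without a member. With only the peaks found in both MZezh2 replicates of an antibody, 23 members (10.6%) remained, because MZezh2 Ezh2 replicate 1 and MZezh2 Rnf2 replicate 2 listed few members. Under this stricter rule the share of all regions was not counted. Those 2 lists held only 0.0652% and 0.985% of all regions, so 3.54% and 5.15% are not its background.

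H3K4me3 was listed at 104, 152 and 108 members in the MZezh2 replicates and at 167, 106 and 112 in the WT replicates. The backgrounds were 48.2%, 42.2% and 32.4% of all regions in MZezh2 and 43.5%, 39% and 34.9% in WT. These counts correspond to 47.7%, 69.7% and 49.5% of the members in MZezh2 and 76.6%, 48.6% and 51.4% in WT, and the first MZezh2 share does not exceed its background. The genotypes overlapped, with a difference of the means of -7 members (MZezh2 121 ± 26.6 and WT 128 ± 33.6, SD, n = 3 each; two-sided exact permutation p = 0.6, smallest possible 0.1). Without replicate 1 of both genotypes it was 21 members, in the other direction. All 6 H3K4me3 lists held 57 members (26.1%, against 29.6% of all regions and 9.31% of the WT H3K27me3 regions without a member), and 16 members were in none of them.

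The H3K4me3 peaks at the members were weak ones. At the 57 members listed in all 6 libraries the median fold was 1.78, 1.97 and 1.77 in MZezh2 and 1.93, 1.95 and 1.75 in WT. The genotypes overlapped, with a difference of -0.03 on the log2 scale (MZezh2 0.88 ± 0.09 and WT 0.91 ± 0.09, SD, n = 3 each; two-sided exact permutation p = 1, smallest possible 0.1). H3K4me3 peaks away from the members had median folds of 8.19, 6.64 and 4.50 in MZezh2 and 5.82, 6.32 and 5.21 in WT. The test did not show a difference between genotypes at these 57 members, which with 3 libraries per genotype it could not have done at 0.05. The 57 were chosen by an H3K4me3 peak in all 6 libraries. Members whose peak was missing in any library therefore could not enter the test, and no conclusion is drawn for them.

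**Figure D2:**
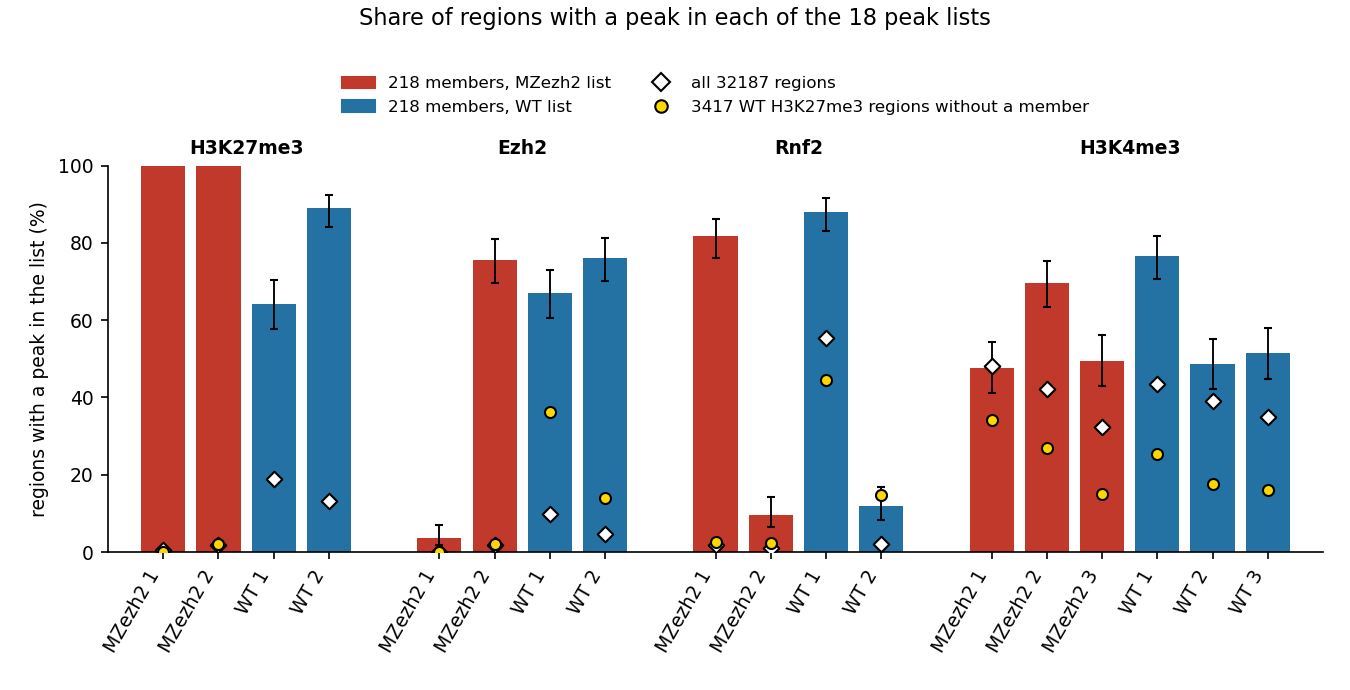
Percentage of regions with a peak in each of the 18 lists, grouped by antibody, with MZezh2 libraries in red and WT libraries in blue. Bars are the 218 members with Wilson 95% intervals of counting error, diamonds all 32187 regions and yellow circles the 3417 WT H3K27me3 regions without a member (not drawn for the WT H3K27me3 lists, which define them). The intervals treat members as independent, which neighbouring members are not, so they may be too narrow. The first 2 bars are 100% because those lists chose the members. Ezh2 replicate 1 and Rnf2 replicate 2 of MZezh2, and Rnf2 replicate 2 of WT, list few members.

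Taking the 14 Ezh2, Rnf2 and H3K4me3 lists together, a member was present in a median of 8, with quartiles of 5 and 11. WT H3K27me3 regions without a member were present in a median of 1 list, with quartiles of 0 and 4. Of the members, 138 (63.3%) were in 7 or more of the 14 lists and 1 (0.459%) in none. Of the WT regions without a member, 461 (13.5%) were in 7 or more and 1251 (36.6%) in none. The number of lists was not counted over all regions. All 6 H3K4me3 lists held 29.6% of all regions, 26.1% of the members and 9.31% of the WT regions without a member. All 3 antibodies, in any replicate of either genotype, had a peak at 182 members (83.5%), against 5.73% of all regions and 18.8% of the WT regions without a member. This order was the same within classes of width, where the median number of lists was 6 for members and 0 for WT regions among those under 200 bp, 7 and 1 from 200 bp to 1 kb, and 11 and 3 over 1 kb.

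**Figure D3:**
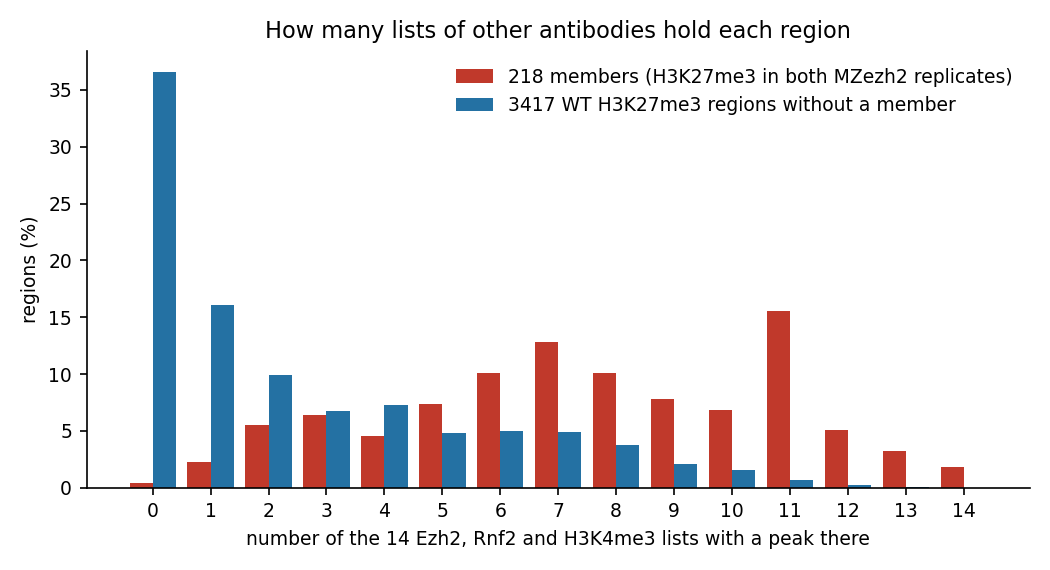
Percentage of regions (y axis) by the number of the 14 Ezh2, Rnf2 and H3K4me3 lists with a peak there (x axis). Red bars are the 218 members and blue bars the 3417 WT H3K27me3 regions without a member. The blue bars are highest at 0 lists (36.6%), the red bars at 11 lists (15.6%).

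The peaks at the members also differed in kind from the other peaks of the same lists, being low in fold and, outside H3K4me3, high in -log10 q. In WT H3K27me3 replicate 1, the 155 peaks at members had a median fold of 2.12 and a median -log10 q of 13.4, against 3.82 and 3.47 for the 6763 peaks elsewhere. In WT H3K27me3 replicate 2, the 226 peaks at members had 2.47 and 18.1, against 3.95 and 3.46 for the 5057 others. MZezh2 H3K27me3 replicate 2 had 2.81 and 25.6 at its 240 peaks at members, against 4.47 and 5.39 at its 516 others, although this list chose the members. In MZezh2 H3K27me3 replicate 1 the folds lay closer together, at 4.38 for the 263 peaks at members and 4.81 for the 24 others.

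The lower fold was also seen with the other antibodies. In Rnf2, the median fold at members was 2.16 against 4.27 elsewhere in MZezh2 replicate 1, and 2.08 against 3.74 in WT replicate 1. In Ezh2 it was 2.55 against 4.07 in MZezh2 replicate 2, 2.06 against 3.47 in WT replicate 1 and 2.43 against 3.71 in WT replicate 2. The exception was MZezh2 Ezh2 replicate 1, where the 8 peaks at members had a median fold of 5.24 against 3.89 for the 13 others. The median -log10 q at members was above that elsewhere in all 12 H3K27me3, Ezh2 and Rnf2 lists. These include both MZezh2 H3K27me3 lists, which chose the members, so their values are no support. In WT Rnf2 replicate 2 the medians lay close together, at 4.95 at members and 4.26 elsewhere. In H3K4me3 it was 10.7, 11.5 and 11.7 at members against 22.5, 16.0 and 7.22 elsewhere in MZezh2, and 18.2, 8.31 and 9.80 against 13.8, 9.99 and 10.1 in WT, so that no common direction was seen. Peaks with a fold under 2.5 were rare in WT H3K27me3 and were mostly found at members. Replicate 1 had 105 such peaks at members and 42 elsewhere, and replicate 2 had 116 and 67. Among these low peaks the median -log10 q was 10.7 at members and 4.63 elsewhere in replicate 1, and 12.3 and 5.75 in replicate 2. Of all peaks in the 6 H3K4me3 lists, 75.9%, 85.2% and 88.8% of those at members were under this fold in MZezh2 and 74.7%, 77.6% and 82.7% in WT, while elsewhere it was at most 0.725% in any of them. Read depth, input coverage and sequence composition of the members were not analysed here, and their part in this pattern was not tested.

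**Figure D4:**
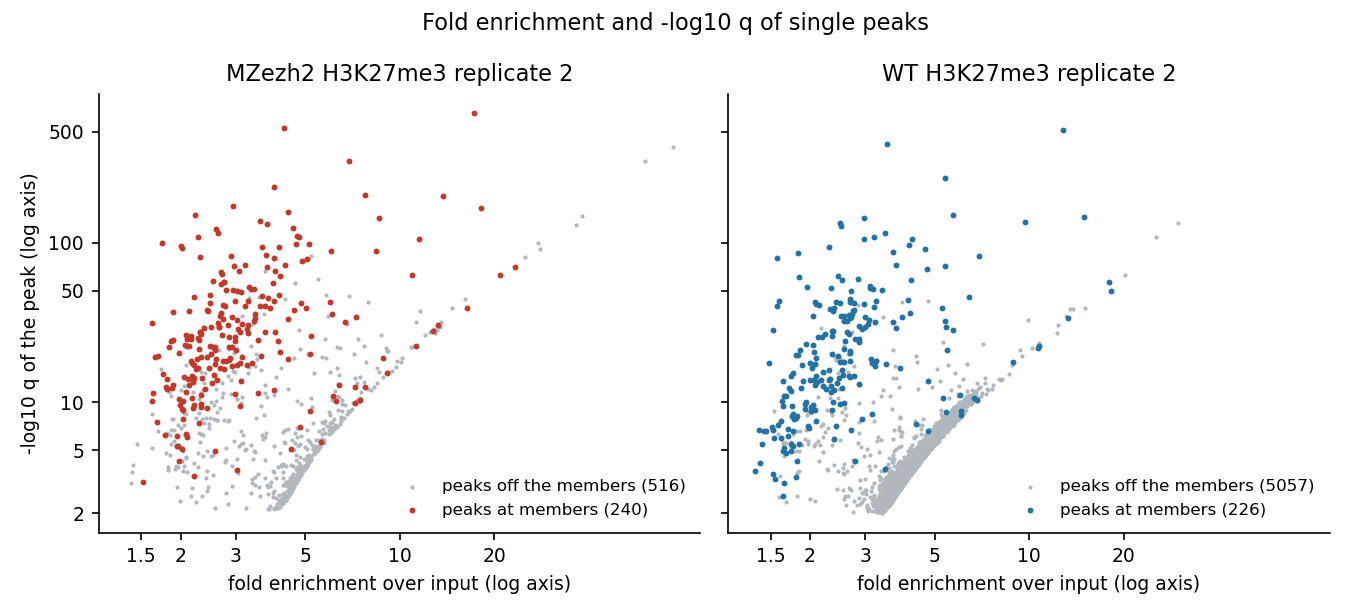
Fold enrichment over input (x axis, log scale) and -log10 q (y axis, log scale) of every H3K27me3 peak in MZezh2 replicate 2 on the left and WT replicate 2 on the right. Coloured points are peaks at members, 240 in MZezh2 and 226 in WT, and grey points are the peaks elsewhere. Most peaks of the WT list lie on a narrow band in which the -log10 q rises with the fold, and most coloured points lie to the left of this band, at lower folds and higher -log10 q.

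**Figure D5:**
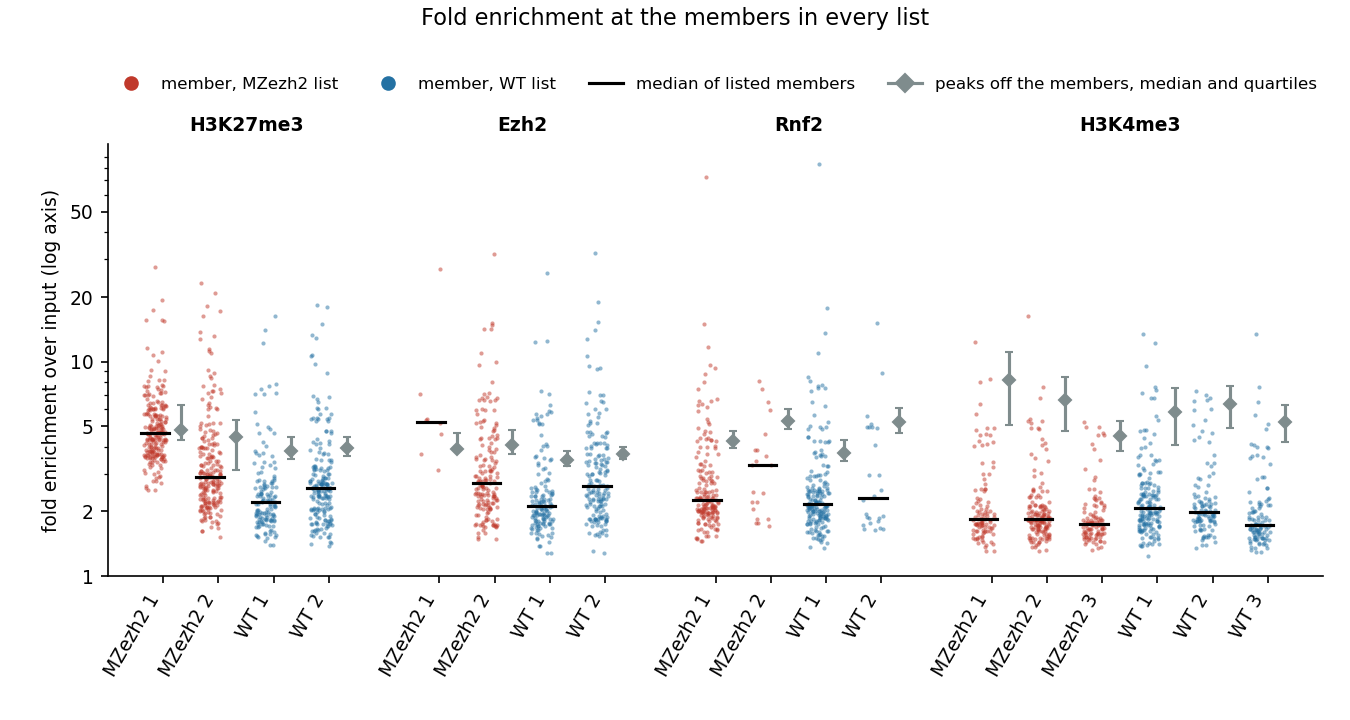
Fold enrichment over input (log scale) of each listed member in the 18 libraries, MZezh2 in red and WT in blue, with black lines for the median of the listed members. Grey diamonds with bars are the median and quartiles of the peaks away from the members. The median of the members is below that of the other peaks in every list but MZezh2 Ezh2 replicate 1, and MZezh2 H3K27me3 replicate 1 has the smallest gap of the lists in which it is below.

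The folds at the members were positively correlated in rank within and between antibodies, to an extent that varied by pair of lists. Over the 194 members that both listed, the folds of MZezh2 H3K27me3 replicate 2 and WT H3K27me3 replicate 2 had a Spearman rho of 0.95. The rho of MZezh2 H3K27me3 replicate 2 was 0.94 with MZezh2 Ezh2 replicate 2 over 165 members, 0.93 with WT Ezh2 replicate 2 over 166 and 0.89 with WT H3K4me3 replicate 1 over 167. Among the 105 pairs of lists that shared at least 50 members, rho ranged from 0.49 to 0.95 with a median of 0.81. These include pairs of the same antibody. Between different antibodies the median was 0.81 for the same replicate number and 0.77 for different numbers. The lowest value, 0.49, was that of MZezh2 H3K27me3 replicate 1 with MZezh2 H3K4me3 replicate 3. Between the H3K27me3 and H3K4me3 libraries of WT, rho over the members ranged from 0.70 to 0.95 in the 6 pairs (83 to 160 members each). At the WT H3K27me3 regions without a member the same 6 pairs gave -0.18 to -0.06 (548 to 869 regions each). Other pairs were positive at those regions. WT H3K27me3 replicate 1 had a rho of 0.58 with WT Ezh2 replicate 1 (1236 regions) and 0.23 with WT Ezh2 replicate 2 (478). MZezh2 H3K27me3 replicate 2 had 0.75 with WT H3K4me3 replicate 1 (65 regions). That last value covers few regions, since MZezh2 H3K27me3 replicate 2 listed 2.17% of the WT regions without a member. Agreement in rank between antibodies was thus also seen off the members for these pairs, but not between H3K27me3 and H3K4me3 of WT. All points share the same input, and neighbouring members are not independent, so these values are descriptions.

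The members with the highest folds were mostly single and narrow. By the lower of the 2 MZezh2 folds, the highest was chr13:40038793-40038958, 166 bp wide, with 27.6 and 20.8 in the MZezh2 replicates and 16.2 and 8.86 in the WT replicates. In each of the 6 Ezh2 and Rnf2 libraries that listed it, this member had the highest fold of all members. Its Ezh2 folds were 27.2 and 31.8 in MZezh2 and 26.0 and 32.1 in WT, and its Rnf2 folds 72.9 in MZezh2 replicate 1 and 83.8 in WT replicate 1, with no peak in either replicate 2. Its H3K4me3 was listed in WT replicate 1 only, with a fold of 9.53. The Ezh2 folds of same-numbered replicates lay closer together across genotypes than those of the 2 replicates of a genotype.

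Second came chr18:13162216-13162383, with 19.5 and 18.2 in MZezh2 and 7.08 and 14.9 in WT. It was followed by chr17:53292616-53292858, with 15.5 and 17.3 in MZezh2 and 12.2 and 12.9 in WT, and chr2:56358523-56358718, with 17.5 and 13.7 in MZezh2 and 7.68 and 9.72 in WT. These last 2 were among the only 4 members present in all 18 lists, the others being chr10:16836065-16836726 and chr16:15764695-15765908. At the chromosome 17 member even the H3K4me3 libraries gave folds of 4.25, 3.70 and 3.15 in MZezh2 and 13.5, 6.78 and 3.60 in WT.

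Of the remaining 6 in the top 10, 2 lay in the same group of chromosome 2. The member at chr2:15060504-15061631 had 11.1 and 11.5 in MZezh2 and 7.04 and 6.45 in WT, and the one at chr2:15043494-15043632 had 15.6 and 10.9 in MZezh2 and 7.45 in WT replicate 1, with no peak in WT replicate 2. At chr19:1198235-1199077 the folds were 10.1 and 23.3 in MZezh2 and 4.63 and 13.3 in WT, and its H3K4me3 folds of 12.3 and 16.3 in MZezh2 replicates 1 and 2 were the highest of any member in those libraries. At chr24:12270715-12270855 they were 15.6 and 8.57 in MZezh2 and 4.20 and 5.39 in WT. The last 2, chr12:47206560-47206699 and chr5:57971206-57971789, had 8.54 and 12.8, and 8.15 and 8.41, in the MZezh2 replicates. The first of these was missing from WT replicate 1 and had 6.08 in WT replicate 2, and the second had 7.82 and 6.93 in WT. All 10 were listed in MZezh2 Ezh2 replicate 2, 9 in MZezh2 Rnf2 replicate 1 and 9 in each WT H3K27me3 list. Over all regions these lists held 1.79%, 1.71%, 18.8% and 13.1%. The 10 were chosen by MZezh2 fold, and folds ranked similarly across lists, so the counts are descriptions. The median width of the 10 was 182 bp.

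The 5 widest members had folds of 3.59 to 4.92 in MZezh2 replicate 1 and 2.13 to 2.98 in MZezh2 replicate 2, near the medians of all members. The widest, chr2:19822021-19827662, spanned 5642 bp inside the largest group and had 4.92 and 2.98 in MZezh2 and 2.37 and 2.58 in WT. The member at chr14:19792809-19798182 (5374 bp) had 3.86 and 2.48 in MZezh2 and 2.05 and 1.95 in WT. At chr7:64181628-64185992 (4365 bp) the folds were 4.38 and 2.53 in MZezh2 and 1.86 and 2.14 in WT, and at chr23:16243847-16247904 (4058 bp) they were 3.59 and 2.13 in MZezh2 and 1.57 and 1.87 in WT. The fifth, chr2:19816442-19819888 (3447 bp), had 4.19 and 2.72 in MZezh2 and 2.11 and 2.99 in WT. All 5 lay on a WT H3K27me3 region, against 10% of all regions, and were present in at least 10 of the 14 lists of other antibodies. Over all members, 81.8% of those over 1 kb lay on a WT region, compared with 45.2% of those under 200 bp. An overlap of 1 bp counts, so a wider stretch meets a WT region more easily. No share of all regions was counted by width, and the 10% covers regions of every width.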

How the data were processed

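The values are the peak lists that the authors deposited for 18 ChIP-seq libraries of 24 hpf embryos; RNA-seq counts were not used. Per the paper's methods and the submitters' processing notes, the authors aligned reads to GRCz10 with BWA, discarded duplicates and reads with several alignments, and ran MACS2 2.1.1 on each replicate with input of WT embryos as the control. As deposited, each peak has a score, a fold enrichment (a ratio to input), a -log10 p and a -log10 q. Depth is not in the lists. Peaks that the study called on the input alone and removed were not removed here, since that needs reads. With that removal, the paper reported far fewer H3K27me3 peaks in MZezh2 embryos than there are members here. It regarded the ones left as most probably artefacts. At the peaks detected in WT, the paper also reported that H3K27me3 coverage in the mutants fell to background. With normalization to the added Drosophila chromatin, it described this decrease as appearing stronger still. Which members are peaks of the input alone was not tested. No sequence or gene was joined to the members, since no GRCz10 genome or annotation was used.

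Lists were processed in Python 3.11.15 (numpy 2.4.6, pandas 2.3.3, scipy 1.17.1), and bedtools 2.31.1 gave identical members. The fold of a member in a list is the highest of its overlapping peaks (at least 1 bp). Genotypes were compared over libraries by two-sided exact permutation tests of the difference of means. The p-values rest on the spread between the libraries of these biological replicates. For Ezh2 this spread can also reflect the unequal list thresholds and the added Drosophila chromatin of replicate 2. Wilson intervals cover counting error only and treat members as independent, which neighbouring members are not. The functions were tested on simulated peaks. Named members are the 10 with the highest lower MZezh2 fold, the 5 widest and the 5 largest groups. Members, groups and tests were chosen with earlier results of these data known. For H3K4me3, departures from the mean of the genotype correlated weakly between libraries of equal number, with r = 0.17, 0.14 and 0.33 over 57 members. Values for libraries of unequal number are not given, so this does not show that the replicate numbers pair the libraries. Alternatives are given in the closing section.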

Additional observations from a re-analysis of the deposited data

How the results depend on the processing

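The number of members depended on merging and thresholds. It was 117 with peaks under 5 kb apart merged, 122 with scores above the median of each list, and 236 to 637 from a single MZezh2 replicate. Without replicate 1, the 637 regions of replicate 2 were listed less often elsewhere. Over the settings without replicate 1 and without replicate 2, the share on a WT H3K27me3 region was 30.5 to 56.8%, with Ezh2 or Rnf2 in a MZezh2 list 65.9 to 83.1%, in groups 47.6 to 66.1%, on scaffolds 8.01 to 10.6%, with H3K4me3 in all 6 lists 12.2 to 23.3%, and with all 3 other antibodies 54.2 to 77.5%. Merging under 5 kb gave 68.4% on a WT region, 94.0% with Ezh2 or Rnf2, 39.3% in groups, 36.8% with H3K4me3 in all 6 lists and 88.9% with all 3 antibodies; scores above the median gave 70.5%, 95.9%, 63.9%, 34.4% and 90.2%. Without merging, 78.7% were in groups, and groups of at least 2 held 81.2%. A peak in at least 1 WT replicate gave 91.3%, a share not counted over all regions. At least 50% of the member covered gave 46.3% on a WT region, 76.1% with Ezh2 or Rnf2 and 14.7% with H3K4me3 in all 6 lists. Ezh2 or Rnf2 found in both MZezh2 replicates of an antibody gave 10.6%, a share likewise not counted over all regions. Chosen after seeing the data, a -log10 q of at least 5 gave 70.3% on a WT region and 94.2% with Ezh2 or Rnf2. Leaving out MZezh2 Ezh2 replicate 2 gave 82.6% and leaving out MZezh2 Rnf2 replicate 1 gave 76.1%. All 3 antibodies were at 77.1% of members without WT Rnf2 replicate 1, 59.2% in the 7 MZezh2 lists and 76.6% in the 7 WT lists. No share of all regions was counted for these sets of lists. The WT Ezh2 and Rnf2 lists held more of all regions than the MZezh2 ones, so these shares do not compare the genotypes. A -log10 q of at least 2 could change no member, since the lowest values in the MZezh2 H3K27me3 lists were 2.04 and 2.12. In the Ezh2 comparison, where this cut could act, the difference was -67 members (MZezh2 minus WT). The causes of these shifts were not tested, beyond the construction of each setting.

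No genotype test could reach 0.05 under any setting. With the replicate number as a block (exact sign flips), the differences stayed at -69.5 (Ezh2), -9.5 (Rnf2) and -7 members (H3K4me3) and -0.03 in log2 H3K4me3 fold, with p = 0.5, 0.5, 0.75 and 1, and no call changed. Without one replicate each, MZezh2 minus WT ran from -138 to -1 members for Ezh2, from -14 to -5 for Rnf2, from -33.5 to 21 for H3K4me3, and from -0.063 to 0.016 in log2 H3K4me3 fold; both H3K4me3 differences turned sign without replicate 1. Depth is not in the lists, so a missing peak may lie just under the threshold of its library.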

Other observations

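The H3K27me3 regions listed in only 1 MZezh2 replicate differed from the members in their occurrence elsewhere. Replicate 2 had 445 such regions after merging, with a median width of 257 bp. Of these, 69 (15.5%) lay on a region shared by both WT H3K27me3 lists, near the 10% of all regions. At least 1 WT H3K27me3 list held 234 of them, a share not counted over all regions. An Ezh2 or Rnf2 peak in a MZezh2 list was found at 244 (54.8%), against 3.54% of all regions. All 3 other antibodies were listed at 181 of the 445 (40.7%), against 5.73% of all regions. No list of another antibody held 63 (14.2%), a share likewise not counted over all regions. Scaffolds held 33 of the 445, and 1.62% of all regions lay on scaffolds. Chromosome 4 held 49 (11.0%), against 4.58% of all regions. The mitochondrial genome held 3. Merging all lists joined the mitochondrial peaks into 1 region (0.00311% of all regions), so this share is no like background for the 3. Of the 445, 96 lay within 100 kb of a member without overlapping one. Replicate 1 had 21 regions of its own, with a median width of 143 bp. Of these, 1 (4.76%) lay on a shared WT region, against 10% of all regions, and 10 were in no list of another antibody.

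Peaks on the mitochondrial genome, which carries no nucleosomes, were listed in 10 libraries. MZezh2 H3K27me3 replicate 2 had 6, MZezh2 Ezh2 replicate 2 had 7 and WT H3K27me3 replicate 1 had 7, with highest folds of 1.73, 1.80 and 1.81. The highest folds of all were 4.18 in WT Rnf2 replicate 1 and 2.87 in WT Ezh2 replicate 1, with 2 peaks each. MZezh2 H3K27me3 replicate 1 had none, so none became a member.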
